A study of Caenorhabditis elegans with 2 samples.

Results

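ONECUT proteins are transcription factors that carry a single cut domain next to a homeodomain and bind DNA through both. In vertebrates they are known from liver, pancreas and nervous system development. In Caenorhabditis elegans the family is larger than in most animals. Several of its members act together with the related cut gene ceh-44 in switching on genes that all neurons share. ceh-39 is also one of the X-linked genes that let the embryo count its X chromosomes. The genes described here are the 6 ONECUT genes ceh-38, ceh-21, ceh-39, ceh-41, ceh-48 and ceh-49, out of 19973 protein-coding genes on the 6 nuclear chromosomes. The family was chosen by the measured signal at ceh-38, which held one of the strongest peaks of the study. That peak and its ranks are therefore given as a description, with no test.

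The study mapped where the protein C04F5.9 sits on chromatin, by chromatin immunoprecipitation and sequencing (ChIP-seq) in whole animals. Both samples were of strain OP525, which carries unc-119(tm4063) III and the transgene wgIs525, a form of C04F5.9 with GFP-FLAG at its C terminus. They were hermaphrodite larvae of the first stage (L1), taken 6 hours after a synchronisation by bleaching and starvation, and the tagged protein was recovered with an antibody against GFP. There were 2 biological replicates in 1 group and no second condition, and the promoter that drives the transgene is not given in the labels. In whole animals, binding in fewer cells and weaker binding in each cell cannot be told apart.

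The values are the authors' region lists on the ce11 genome. The combined list, from both replicates, held 30000 regions, replicate 1 held 30000 and replicate 2 held 28005. These lists are relaxed and take in background. The optimal list, kept by the authors for rank agreement between the replicates, held 1205 peaks, and these were the 1205 regions of the combined list with the highest signal. Each region has a signal value set by the authors and a summit, the base where its signal is highest. Read depth is unknown, and signal was compared only within a list. A summit was assigned to a gene if it lay in the gene or within 2000 bp of any of its transcript 5′ ends, which assigns by distance only.

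Of the 6 ONECUT genes, 1 had an optimal peak, ceh-38. Over all protein-coding genes the share with one was 9.27% by the same rule. All 6 had a summit of the combined list, against 66.9% of all protein-coding genes. The count was 6 of 6 in replicate 1, where the share of all genes was 66.4%, and 3 of 6 in replicate 2, where it was 69.9%. The 3 genes with no replicate 2 summit were ceh-41, ceh-48 and ceh-49. The windows searched were longer for the 6 genes, with a median of 4899.5 bp against 4182 bp over all protein-coding genes. Per kb of window, the median number of combined-list summits was 0.307 for the 6 genes and 0.250 over all protein-coding genes. Most protein-coding genes have a summit of the relaxed lists, so the 6 genes are described below by the ranks of their regions.

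**Figure D1:**
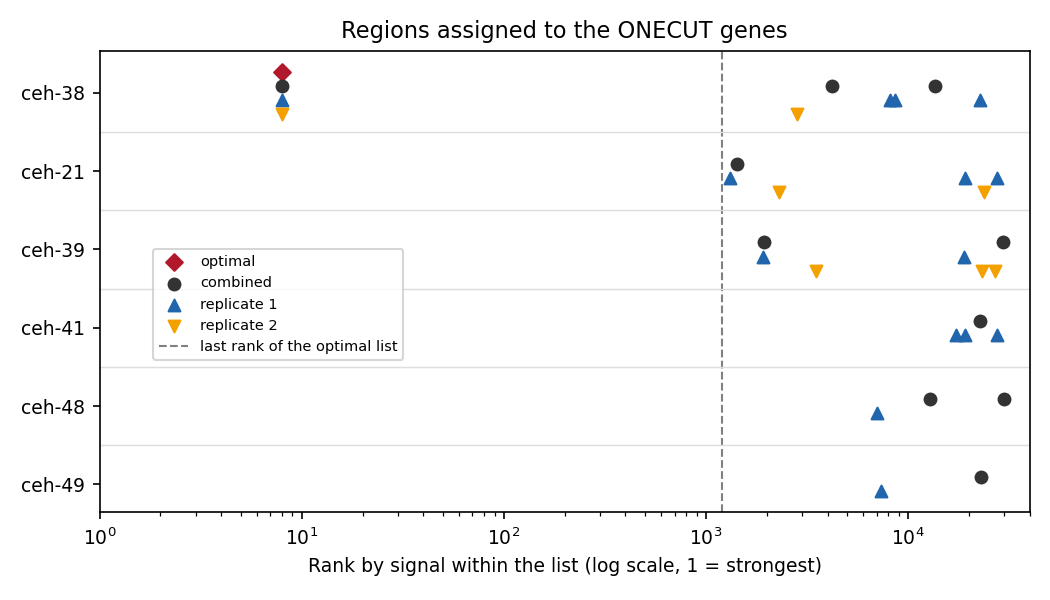
Rank by signal (log scale, 1 is the strongest) of every region assigned to each ONECUT gene in the optimal, combined, replicate 1 and replicate 2 lists. The strongest ceh-38 region is at rank 8 in all 4 lists, while no region of the other 5 genes lies left of the dashed line at rank 1205, the end of the optimal list.

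Sites of the strongest peaks that hold the word AGACCC on ce11 are shown first, since this word lies under the ceh-38 summit. The word was picked after the summits of the strongest peaks had been seen, so its presence there is a description. Of the 10 strongest optimal peaks, 8 had AGACCC within 50 bp of the summit on one strand or the other. The ceh-38 site and 5 of the other 7 are printed 5′ to 3′ on the strand that reads AGACCC, with that word in capitals and with the nearest gene as a name. The sites at rank 3 (nra-2) and rank 9 (tag-353) also hold the word and are compared below but not printed.
ceh-38, rank 8, chrII:6951529-6951558, + strand: caattcgttgtaAGACCCcatcatcatgtg
gmps-1, rank 2, chrII:10868923-10868952, - strand: caaatcgcggcgAGACCCgcgagcttttgg
Y25C1A.8, rank 4, chrII:3077083-3077112, - strand: caaatcgtggcgAGACCCggccgcattttg
mig-5, rank 5, chrII:8185187-8185216, - strand: gtaatcgtgccgAGACCCaacaccagctgt
sec-24.1, rank 7, chrIV:11566345-11566374, + strand: caaatcgctgcgAGACCCagcgtgctgcgt
T14G11.1, rank 10, chrX:2688716-2688745, - strand: cacatcgcttcgAGACCCtcgcttcaaact

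The word at ceh-38 was centred 2.5 bp to the left of the summit. In the 12 bases before it, the other 7 sites of the top 10 all had the same base at 6 positions. The ceh-38 site had that base at 3 of the 6, the run tcg that ends 5 bases before the word, and another base at the remaining 3. The ceh-38 site was identical to the other 7 at 5 to 9 of the 12 bases before the word and at 1 to 4 of the 12 bases after it. The site most like it before the word was that at rank 3, with 9 identical bases. The longer word CGAGACCC, which contains AGACCC, was within 50 bp of the summit in 7 of the top 10 peaks and was absent from the ceh-38 window. CGATTTGC and ACCGTACC were each found in 6 of the top 10 and neither in the ceh-38 window. These 3 words were also chosen after the strongest peaks had been seen.

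Over the whole optimal list, the top 10 included, AGACCC was within 50 bp of 6.72% of the 1205 summits, and of 2.33% of the 28795 weaker summits of the combined list. In windows of 301 bp it was in 10.4% of optimal summits and 6.30% of weaker ones, and in 5.52% of the promoters of all protein-coding genes, taken from 250 bp before to 50 bp after the outermost 5′ end. The word AGACGCAG, which earlier results of these data had picked out, was within 50 bp of 9.38% of optimal and 1.28% of weaker summits, and was not within 150 bp of the ceh-38 summit. GCAAACAC, also picked out by earlier results, was within 50 bp of 6.97% of optimal and 0.747% of weaker summits. It was in 0 of the 10 strongest peaks, ceh-38 included. The core ATCGAT, one of the sequences that cut homeodomain proteins are known to bind, was centred 136.5 bp from the ceh-38 summit. It was within 150 bp of 16.8% of optimal summits, 11.1% of weaker summits and in 12.3% of promoters. A match to these letters is not evidence of binding by any factor.

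ceh-38 (WBGene00000459) lies on the + strand of chromosome II, from 6951526 to 6955409, and is annotated with 24 transcripts that start at 11 different 5′ ends. Its product is broadly present across tissues, by what is known of the gene. The optimal peak ran from 6951219 to 6951881, a width of 663 bp, with its summit at 6951546. Its signal was 8590.91 in the combined list, 5705.65 in replicate 1 and 2894.67 in replicate 2. These 3 values are on the scales of their own lists and are not to be compared with each other, but the peak was at rank 8 in each of them. Relative to the median of its own list the signal was 74.8 times in the optimal list, 353 times in the combined list, 308 times in replicate 1 and 330 times in replicate 2. The −log10 q value of the authors was 2.93 in the combined list, the same as for every optimal peak, so it did not order the peak among them. It was 2.90 in replicate 1 and 3.25 in replicate 2.

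Signal fell in steps at the ranks around the peak. Rank 7, at the vesicle coat gene sec-24.1, had 1.73 times its signal, and it had 1.62 times the signal of rank 9, at tag-353. The same steps were 1.77 and 1.60 in replicate 1 and 1.66 and 1.66 in replicate 2. In the combined list the signal fell again, from 5291.32 at rank 9 to 3152.4 at rank 10. Such steps were thus not particular to the ceh-38 peak. The ceh-38 peak reached 28.9% of the signal of the strongest peak in the combined list, 27.4% in replicate 1 and 32.7% in replicate 2. It held 2.41% of the summed signal of the optimal list. It was wider than 1197 of the 1205 optimal peaks. Of all protein-coding genes, 16 had a region at rank 8 or better by the assignment rule, ceh-38 and its neighbour malt-1 among them, or 0.0801%.

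**Figure D2:**
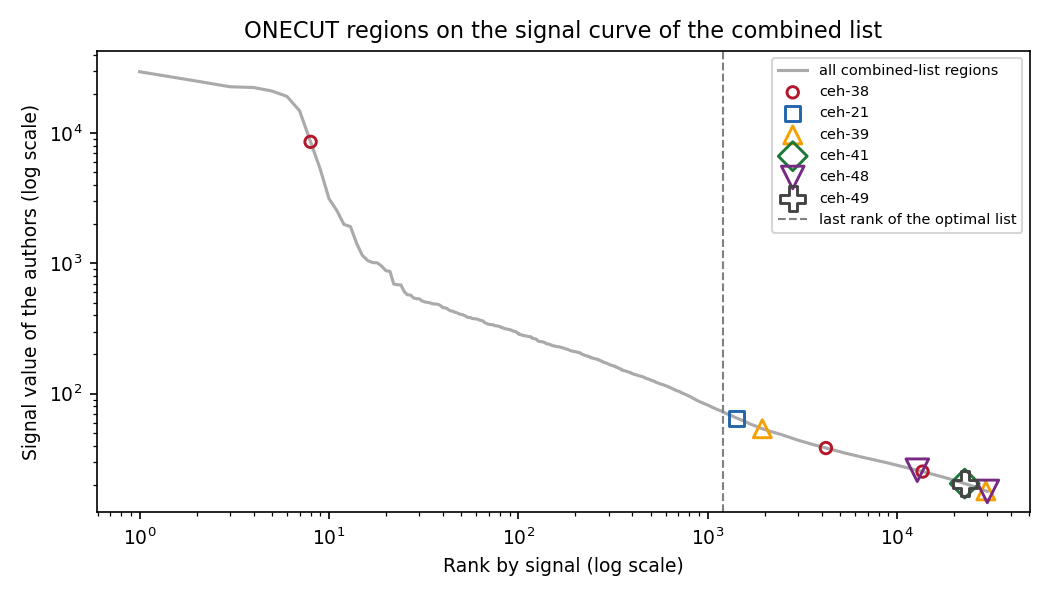
Signal of the authors against rank in the combined list, both on log scales, with the regions of each ONECUT gene marked. The strongest ceh-38 region sits at signal 8590.91, while the strongest region of any of the other 5 genes, at ceh-21, sits at 64.8867, beyond the dashed line at rank 1205.

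The summit lay 20 bp inside the gene, downstream of the outermost 5′ end, in the 5′ UTR of the 3 transcripts that start there. The other 10 annotated 5′ ends lay downstream of it. Of these, 5 ends, with 5 transcripts, were 73 to 120 bp away, and 5 ends, with 16 transcripts, were 451 to 524 bp away. For most annotated transcripts the summit was thus upstream of the start. The replicate summits were 1 bp and 6 bp from the combined one, in replicate 1 and replicate 2.

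The region is shared with malt-1, which encodes the worm relative of the paracaspase MALT1 and runs on the - strand away from ceh-38. The summit was 246 bp upstream of the malt-1 5′ end, and 225 bp separate the genes. These lists do not tell which of the pair, if either, the binding acts on. The stretch between the outermost 5′ ends is printed on the + strand because the peak covers it whole; none of the searched words occurs in it.
malt-1 to ceh-38, chrII:6951301-6951525, + strand: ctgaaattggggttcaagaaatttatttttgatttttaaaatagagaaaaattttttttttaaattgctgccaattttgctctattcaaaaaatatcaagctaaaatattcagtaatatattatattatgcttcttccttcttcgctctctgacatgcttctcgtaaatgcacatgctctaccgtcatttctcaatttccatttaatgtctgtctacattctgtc

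In base composition the ceh-38 peak differed from the peaks around it. In position relative to the nearest coding 5′ end it differed from most of them. GC content within 50 bp of its summit was 39.6%, against 48.5 to 60.4% in the other 11 of the 12 strongest peaks. Over the optimal list the median was 47.5%, with quartiles of 41.6 and 52.5%, and 190 of the 1205 peaks (15.8%) were lower than ceh-38. Weaker regions of the combined list had a median of 36.6%. The other 9 of the 10 strongest summits all lay upstream of their nearest coding 5′ end, by 156 to 290 bp. Rank 11 was upstream too, by 172 bp, but rank 12, at F22D6.8, was downstream in the optimal list, by 106 bp. The difference in position rests on the outermost of the 11 annotated ceh-38 5′ ends, where 3 transcripts start. The ceh-38 summit was upstream of the remaining ends. It was also 246 bp upstream of the malt-1 5′ end, within the range of 156 to 290 bp.

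**Figure D3:**
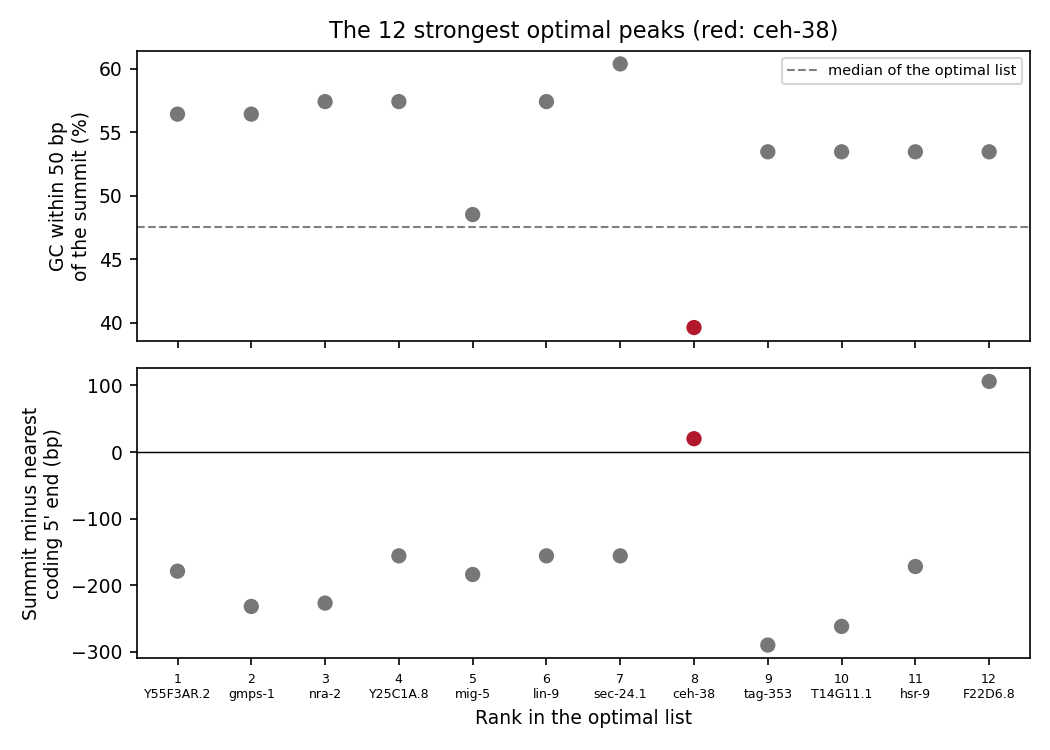
GC content within 50 bp of the summit (top, percent) and distance of the summit from the nearest coding 5′ end (bottom, bp, negative upstream) for the 12 strongest optimal peaks, with ceh-38 in red. The ceh-38 point is the lowest in GC, at 39.6%. It is 20 bp downstream of the nearest of its annotated 5′ ends, while ranks 1 to 7 and 9 to 11 are upstream.

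The other regions at ceh-38 were weak. One, at rank 4212 of the combined list (6952558 to 6952941; signal 38.236), had its summit in a coding exon of all 24 transcripts, 680 bp downstream of the nearest 5′ end. Its counterpart was at rank 8135 in replicate 1, and replicate 2 placed it at 2825. The third, at rank 13641 (summit 6954313; signal 25.2247), lay in an intron, with a region at rank 8598 in replicate 1 and none in replicate 2. Replicate 1 had another intronic region at rank 22754. The signals of both weaker combined regions were 1.57 and 1.04 times the list median.

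**Figure D4:**
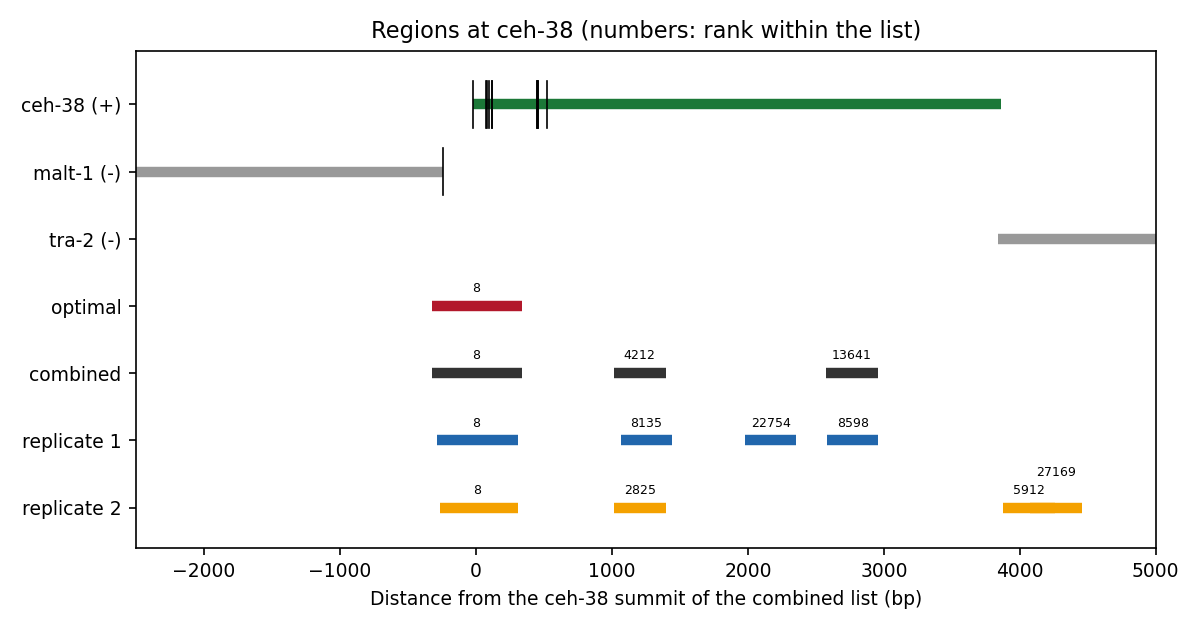
Regions around ceh-38 in the 4 lists, by distance from the ceh-38 summit in bp, with ranks above the bars; green is ceh-38, grey are its neighbours, and thin black lines are transcript 5′ ends. A region of the same rank, 8, covers the gap between malt-1 and ceh-38 in each list, while the other regions start at rank 2825.

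None of the other 5 genes had an optimal peak, and each is annotated with 1 transcript. In the combined list their best ranks were 1428 for ceh-21, 1944 for ceh-39, 12797 for ceh-48, 22782 for ceh-41 and 22847 for ceh-49. The optimal list ended at signal 72.2068, at rank 1205, and the next region had 72.1791. Of all protein-coding genes, 10.6% had a region as strong as that at ceh-21 or stronger. The share was 13.5% at the level of ceh-39, 43.6% for ceh-48, 58.8% for ceh-41 and 58.9% for ceh-49. The median best rank of the 5 genes was 12797, against 16612 over all protein-coding genes, with genes without a region placed after the last rank.

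ceh-21, ceh-39 and ceh-41 lie in a row on the - strand of chromosome X, with T26C11.9 between ceh-39 and ceh-21. The functions of ceh-21 and ceh-41 apart from the family's are less well known than that of ceh-39. The ceh-21 region (1853598 to 1853981) had signal 64.8867 in the combined list, where it was at rank 1428. It had signal 45.9779 at rank 1312 in replicate 1 and 18.5322 at rank 2309 in replicate 2. By its combined rank the region was thus near the edge of the optimal list, an edge that the replicate lists do not have. Its summit, at 1853790, lay 1054 bp upstream of the ceh-21 5′ end and 59 bp inside T26C11.9, in the 5′ UTR of that gene. It was therefore nearer to T26C11.9 than to ceh-21, and it missed the ceh-39 window by 84 bp. The word AGACGCAG was centred 6.5 bp from this summit. The 30 bases around it, with the word in capitals, are printed because this is the strongest region outside ceh-38.
ceh-21 region, chrX:1853782-1853811, - strand: tagccgacgagAGACGCAGaggtattcaca

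The core ATCAAT was 34.5 bp from the same summit; it was within 50 bp of 5.81% of optimal and 9.90% of weaker summits. Weaker regions at ceh-21 were found in single replicates. Replicate 1 had regions at ranks 19178 and 27640 in the 3′ UTR of ceh-21, which also fell within the window of ceh-41, 1111 and 1331 bp upstream of it. Replicate 2 had 1 in an intron, at rank 23878. None of these had a counterpart in the combined list.

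At ceh-39 the strongest region (1856163 to 1856546) was at rank 1944 in the combined list, with signal 53.8025. It had signal 38.503 at rank 1912 in replicate 1 and 14.9506 at rank 3507 in replicate 2. Its summit was 183 bp upstream of the ceh-39 5′ end, between genes, and 118 bp upstream of the non-coding RNA gene T26C11.10. Of the 5 genes other than ceh-38, ceh-39 was thus the one whose strongest region lay both within 200 bp upstream of its own start and in both replicates. GC content within 50 bp of the summit was 61.4%, above every one of the 12 strongest optimal peaks. The 101 bases centred on the summit hold none of the searched words and are printed on the strand of ceh-39 for comparison with the sites of the strongest peaks.
ceh-39 region, chrX:1856305-1856405, - strand: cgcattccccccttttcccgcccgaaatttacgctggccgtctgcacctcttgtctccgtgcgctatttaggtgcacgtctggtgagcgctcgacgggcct

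A second ceh-39 region, 1838 bp upstream, was at rank 29461 of the combined list with signal 17.9229. It overlapped a region in replicate 2, at rank 23274, and none in replicate 1. Replicate 1 alone had a region at rank 18933, 765 bp upstream, and replicate 2 alone had 1 at rank 26998 in a coding exon. An optimal peak lay just outside the window, with its summit 2595 bp upstream of the ceh-39 5′ end at 1858767. It was at rank 1190 with signal 73.0646, at rank 1352 in replicate 1 and at rank 1142 in replicate 2. This peak was close to the end of the optimal list, and its distance exceeded the window by 595 bp.

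**Figure D5:**
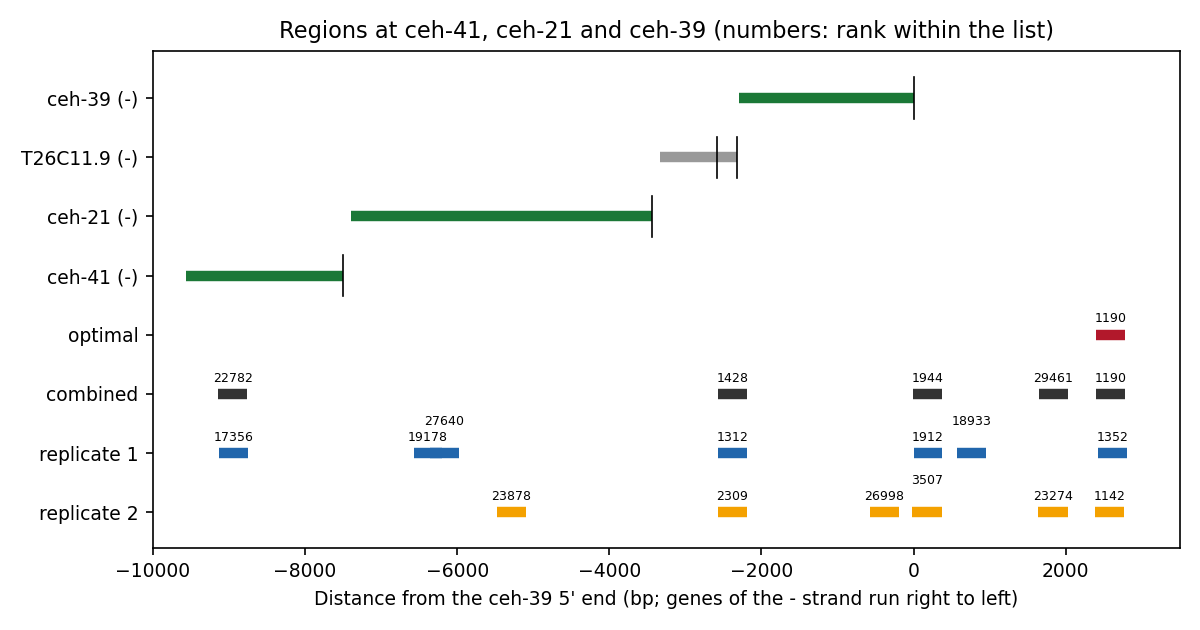
Regions around ceh-39, ceh-21 and ceh-41 on chromosome X, by distance from the ceh-39 5′ end in bp, with ranks above the bars; green marks ONECUT genes, grey marks T26C11.9, and thin black lines are 5′ ends. The regions at ranks 1428 and 1944 of the combined list have a partner in both replicates, and the only optimal peak, at rank 1190, lies beyond the ceh-39 window.

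ceh-41 had 1 combined region, at rank 22782 (signal 20.3968), with its summit in a coding exon 1452 bp downstream of the 5′ end. It was found in replicate 1, at rank 17356, and not in replicate 2. Another combined region lay just outside the ceh-41 window, past the 3′ end of the gene, at rank 10054 with signal 28.1644 and 787 bp beyond the window. Replicate 1 had a region there at rank 11412, 746 bp beyond the window, and replicate 2 had one at rank 2489 with signal 17.7585, 930 bp beyond it. ceh-48, which is known for its expression throughout the nervous system, lies on chromosome IV and had 2. The first was at rank 12797 (summit 6810261; signal 25.8315), 1847 bp upstream of the gene, found in replicate 1 at rank 6998 and not in replicate 2. AGACCC was centred 16.5 bp from this summit, on the - strand. The second, at rank 29982 in a coding exon, overlapped no region of either replicate. ceh-49, on chromosome V, had 1 region at rank 22847 (signal 20.3689), 64 bp upstream of its 5′ end, found in replicate 1 at rank 7351 and not in replicate 2. GC content within 50 bp of that summit was 23.8%. The regions at these 3 genes thus had 0.730 to 1.06 times the median signal of the combined list, and none was found in replicate 2. Their −log10 q values in the combined list were 0.0273 to 0.107. The value was 2.76 for the ceh-21 region and 1.54 for the strongest ceh-39 region.

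Similar copies elsewhere in the genome can draw reads to the wrong place. For each of the 10 combined-list summits at members, the surrounding 301 bp had 0 other matches of at least 50 bp and 90% identity. The longest other match of the ceh-38 summit was 37 bp at 81.1% identity.

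The other homeobox genes, set beside the family, seldom had an optimal peak. Of 93 homeobox genes outside the family, 2 had an optimal peak (2.15%), against 9.27% of all protein-coding genes. These were ceh-20, which encodes a PBC-class cofactor of Hox proteins, at rank 48 with signal 414.795 and 807 bp upstream of its 5′ end, and ceh-8, at rank 936 with signal 85.2903 and 1330 bp downstream. Among the 99 listed homeobox genes ceh-38 had the strongest peak. The family was chosen by that peak, which malt-1 shares, so this place is a description only. Of the 93, 63.4% had a combined-list summit, and their median best rank was 20738. dve-1, another gene with a cut-type domain, had its best region at rank 17120, and ceh-44 was not analysed here.

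Pan-neuronal genes, which several members of the family are known to act on, and genes of X chromosome counting and sex determination were counted by the same rule. Of 16 pan-neuronal genes, 2 had an optimal peak (12.5%, against 9.27% of all protein-coding genes), and 15 had a combined-list summit (93.8%, against 66.9%). The genes with an optimal peak were ehs-1, an endocytosis gene, at rank 885 with signal 88.4966 and 845 bp upstream, and syd-2, a gene of the presynaptic active zone, at rank 1187 with signal 73.2689 and 515 bp upstream. Of 12 genes of X chromosome counting and sex determination, 0 had an optimal peak, against the same 9.27% of all genes, and 11 had a combined-list summit (91.7%, against 66.9%). With so few genes in either list, these shares rest on single genes. The windows searched were also longer, with medians of 8110.5 bp for pan-neuronal genes and 9916 bp for the X and sex list, against 4182 bp over all protein-coding genes. Per kb of window, the median number of combined-list summits was 0.312 for pan-neuronal genes and 0.180 for the X and sex list. Over all protein-coding genes it was 0.250. In the combined list xol-1, the switch gene that the X signal acts on, was at rank 14698, and fox-1, another X signal gene, was at rank 5589. ceh-39 belongs to this list and had its best rank in it. tra-2, which overlaps the 3′ end of ceh-38 on the opposite strand, was at rank 4951. C04F5.9 itself, the tagged gene, had 0 combined-list summits, and the nearest optimal summit was 69.656 kb away.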

How the data were processed

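ChIP-seq against the GFP tag of C04F5.9 was performed on whole L1 larvae, in 2 biological replicates of 1 group. The values are region lists deposited by the authors: 1 per replicate, 1 from both combined, and the optimal list, all on ce11. Each region has a signal value, a −log10 q value and a summit offset deposited by the authors. Per the file headers and companion text, the relaxed lists were called against a control alignment as input for the irreproducible discovery rate. For the aligner, caller and cutoff, names and versions are not given in the sources used. The scale of the signal belongs to each list, so signal was ranked within a list. The lists on ce10, the control and the coverage tracks were not analysed here. Read depth is unknown, so no interval that needs it is given.

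Summits were assigned to genes of Ensembl release 115 on the 6 nuclear chromosomes with Python 3.11.15, pandas 2.3.3 and numpy 2.4.6. Sequences were read from the NCBI RefSeq genome of the same assembly (WBcel235, ce11). Similar copies were sought with BLAST+ 2.17.0. Words were searched on both strands, and where a word contains another, both were counted. The assignment was tested on simulated summits.

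Members, gene lists and words were chosen with earlier results of these data known. Named genes are the members, coding genes that share an optimal region or a member's strongest region, the genes at the ranks beside the ceh-38 peak, listed genes with an optimal peak, and C04F5.9. The genes at printed sites, xol-1, fox-1, tra-2, dve-1 and the non-coding gene near ceh-39 were named after their values were seen. There is no test, because the members were chosen by their peaks and there is 1 group. Alternatives were windows of 500, 1000 and 5000 bp, region overlap of at least 1 bp, the stronger part of each list, merging of summits within 200 bp, and each replicate alone.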

Additional observations from a re-analysis of the deposited data

How the results depend on the processing

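The strongest ceh-38 region was at rank 8 in the combined, optimal and both replicate lists and after summits within 200 bp were merged. Apart from the values given next, the counts of genes and summits stayed within 1.5 times of those reported, and the best rank of the other 5 genes was 1190 to 1944 over the other windows. With a window of 5000 bp, 2 ONECUT genes had an optimal peak in place of 1, because the peak near ceh-39 then fell inside, and 5 homeobox genes had one in place of 3. The number of ONECUT genes with a summit of the relaxed list was 3 without replicate 1 and 6 without replicate 2. The best rank among the 5 genes other than ceh-38 ranged from 1312 without replicate 2 to 2309 without replicate 1, around 1428 in the combined list. The signal of the ceh-38 peak over its list median was 74.8 in the optimal list and 353 in the combined list. It was 308 without replicate 2 and 330 without replicate 1. The optimal list holds only the strongest regions and so has a higher median.

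No paired analysis was possible because the samples form 1 group. The main limits are that binding is assigned to genes by distance, that a peak between a pair of genes is counted for both, that read depth is unknown, and that ranks beyond the optimal list include background. Signal of the combined and replicate lists is not on a common scale. The p-value columns of the lists were not used to test anything.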
